A study of Mus musculus with 21 samples.

Results

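The genes described here are 34 mouse genes used as markers of macrophages and microglia, found by symbol from a given list among the 21878 lines of the count table. All 34 have a line in the table, and all 34 passed the filter on low counts that left 14968 genes for testing. They fall into 6 groups by role: the 3 chains of complement C1q, 5 genes of resident identity, 6 genes of macrophages around vessels and at tissue borders, 8 genes of leukocyte signalling, 9 phagocytic genes and 3 genes best known from osteoclasts.

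The libraries were made from the cochlea of mice at postnatal day 7. Each holds about 50 spiral ganglion neurons, the primary auditory neurons, drawn with a micropipette and turned into a polyA Smart-seq2 library. In the first condition an adeno-associated virus carried a site-mutated, dominant-negative form of the channel HCN2 (DN-mHCN2), with 3 libraries from the base of the cochlea and 4 from the apex. In the second the virus carried a truncated SK3 channel that acts as a dominant negative, with 3 libraries from the base and 3 from the apex. In the control, labelled wild type, it carried EGFP, with 4 libraries from the base and 4 from the apex. Neurons of all 6 groups therefore came from cochleae given a virus, and no untreated cochlea was analysed here. HCN2 passes an inward current on hyperpolarization and SK3 is a potassium channel opened by calcium, so both shape the firing of neurons. In the labels each library is a biological replicate and no animal is named, so the p-values measure the spread between libraries.

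Macrophages and microglia are the resident phagocytes of tissues and of the central nervous system. They depend on signals through the receptor Csf1r and on the transcription factor PU.1, the product of Spi1, and they take up debris and dying cells. The cochlea holds resident macrophages among the spiral ganglion neurons and in the tissue around them, and the bone near them is remodelled by osteoclasts, which come from the same myeloid lineage. A pool of neurons drawn by pipette should hold few transcripts of these genes, and in such a pool fewer macrophages and less RNA per macrophage cannot be told apart.

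Library totals ran from 10411634 to 15138780 counts, and levels are given as CPM, counts scaled to the library total. Markers of spiral ganglion neurons, 11 in number, held between 12250 and 28290 CPM in the 21 libraries, and 11 markers of Schwann cells and satellite glia between 9148 and 41750 CPM. The neuron label thus matched its markers, beside a large share of glial transcripts in each library. The libraries DN-mHCN2 base replicates 2 and 3, and to a lesser degree control apex replicate 4, stood apart from the others of their groups in the 34 genes. Calls among the 34 genes that rest on DN-mHCN2 base replicates 2 and 3 are given with and without them. Calls in the other gene lists are given only with these libraries, so how far they rest on them was not tested. The medians and pooled counts that involve control apex include its replicate 4.

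The start sites of the members carry a common feature of myeloid genes. RefSeq windows on GRCm38.p6, from 250 bases before to 50 bases after a start, were matched for 25 of the 34 members, in 30 windows. The core of the site that PU.1 binds, GAGGAA on either strand (read as TTCCTC on the other), stood in 18 of these 30 windows, or 60.0%, against 28.3% of all 32851 windows of that length. By gene it stood in 16 of 25 members, against 31.3% of 27025 genes. The motif TGANTCA, bound by AP-1 factors, stood in 3 of the 30 windows (10.0%), against 7.81% of all windows, and TCACGTG, the E-box of the MITF family, in 0 of 30, against 3.77%. The 3 motifs were counted on both strands, and matches that overlap one another were all counted. Such matches describe the sequence and do not show binding. C1qa, Csf1r, Adgre1, Tyrobp, Itgb2, Spi1, Cd14, Msr1 and Mmp9 had no window.

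The 4 windows below were chosen because each holds the PU.1 core at least 2 times and each stands for another role group whose levels are described further on. Mrc1 is a perivascular gene at chr2:14229164-14229463 on the plus strand, Itgam a leukocyte gene at chr7:128062390-128062689 on the plus strand, Cd68 a phagocytic gene at chr11:69666121-69666420 on the minus strand, and Oscar an osteoclast gene at chr7:3616108-3616407 on the minus strand. Each is printed 5′ to 3′ on the strand of the gene, and capitals mark GAGGAA or TTCCTC.
Mrc1: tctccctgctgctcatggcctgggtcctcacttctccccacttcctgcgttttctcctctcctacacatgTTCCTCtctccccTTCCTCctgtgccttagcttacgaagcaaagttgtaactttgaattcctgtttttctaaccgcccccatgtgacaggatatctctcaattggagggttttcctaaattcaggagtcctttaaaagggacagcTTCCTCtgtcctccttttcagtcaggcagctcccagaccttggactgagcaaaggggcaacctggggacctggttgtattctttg
Itgam: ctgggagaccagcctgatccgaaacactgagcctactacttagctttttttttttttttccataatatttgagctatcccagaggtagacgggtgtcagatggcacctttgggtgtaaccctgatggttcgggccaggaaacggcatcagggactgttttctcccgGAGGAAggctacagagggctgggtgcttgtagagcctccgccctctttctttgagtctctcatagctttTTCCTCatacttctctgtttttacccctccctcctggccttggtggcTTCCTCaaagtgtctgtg
Cd68: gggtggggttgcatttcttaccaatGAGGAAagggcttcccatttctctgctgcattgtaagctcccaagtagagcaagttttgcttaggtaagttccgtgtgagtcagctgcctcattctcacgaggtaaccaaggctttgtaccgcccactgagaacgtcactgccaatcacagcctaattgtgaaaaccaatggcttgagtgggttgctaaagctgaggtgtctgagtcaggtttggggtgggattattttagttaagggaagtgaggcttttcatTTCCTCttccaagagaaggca
Oscar: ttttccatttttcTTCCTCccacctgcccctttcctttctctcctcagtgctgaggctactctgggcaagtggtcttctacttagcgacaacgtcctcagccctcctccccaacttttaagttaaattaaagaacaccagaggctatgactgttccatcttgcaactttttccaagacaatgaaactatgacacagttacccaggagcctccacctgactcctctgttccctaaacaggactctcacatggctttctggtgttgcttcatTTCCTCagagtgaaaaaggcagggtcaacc
The core occurs 3 times in the windows of Mrc1 and Itgam and 2 times in those of Cd68 and Oscar. In the window of Oscar it is read as TTCCTC both times.

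The members were low in nearly all libraries and high in a few. Summed over the 34 genes, DN-mHCN2 base replicates 1, 2 and 3 held 55.4, 8059 and 2473 CPM, and the truncated SK3 base libraries held 155, 360 and 64.7 CPM. Control base libraries held 41.0, 28.3, 94.9 and 44.8 CPM. In the apex the sums were 43.1, 60.4, 43.4 and 9.78 CPM in DN-mHCN2 libraries, 85.0, 58.0 and 38.8 CPM in truncated SK3 libraries, and 112, 78.9, 77.9 and 732 CPM in control libraries. DN-mHCN2 base replicate 1 lay within the range of control base, while replicates 2 and 3 lay far above every other library. The 34 genes took 0.803% of the counts of DN-mHCN2 base replicate 2 and 0.237% of those of replicate 3. In control apex replicate 4 they took 0.0743%, and in truncated SK3 base replicate 2 they took 0.0357%.

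**Figure D1:**
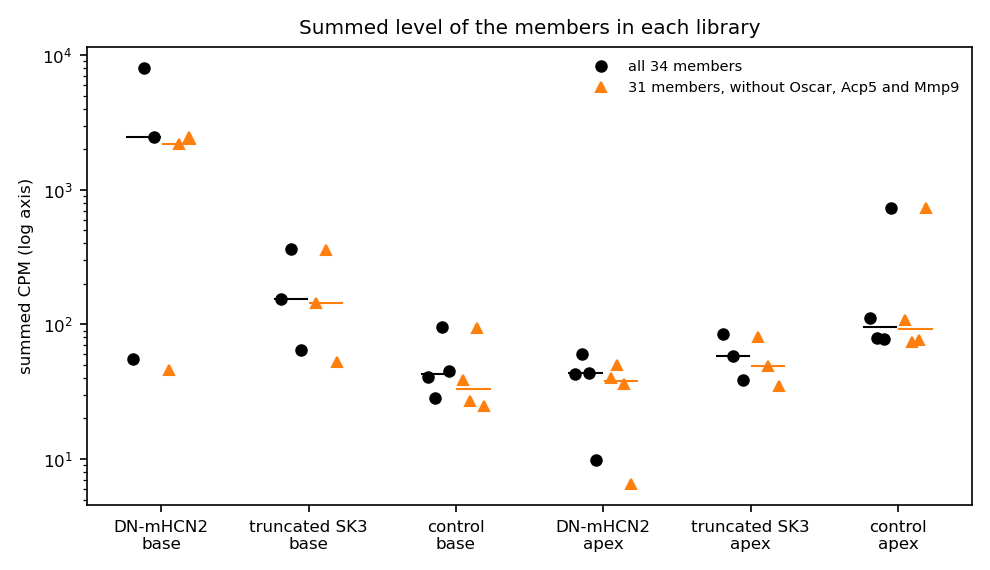
Summed CPM of the members in each library on a log axis, for all 34 (circles) and for the 31 without Oscar, Acp5 and Mmp9 (triangles), by group, with bars at the group medians. In DN-mHCN2 base 1 library sits at 55.4 CPM beside those at 8059 and 2473 CPM, and without the 3 osteoclast genes those 2 libraries sit close together, at 2200 and 2457 CPM.

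The pattern was shared by nearly all of the genes. Of the 34 members, 32 were highest in DN-mHCN2 base replicate 2 or 3, 14 of them in replicate 2 and 18 in replicate 3, and 2 were highest in control apex replicate 4. These 2 were Cx3cr1, the receptor for fractalkine, at 36.4 and 26.9 CPM in DN-mHCN2 base replicates 2 and 3 and 41.9 CPM in control apex replicate 4, and Ly86, the partner of a Toll-like receptor homologue on myeloid cells, at 8.80, 7.25 and 9.17 CPM in the same libraries. For 22 members the 3 highest libraries were these 3. At the other end, 18 of the 34 genes had no count at all in DN-mHCN2 apex replicate 4, and 17 had none in truncated SK3 apex replicate 3.

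**Figure D2:**
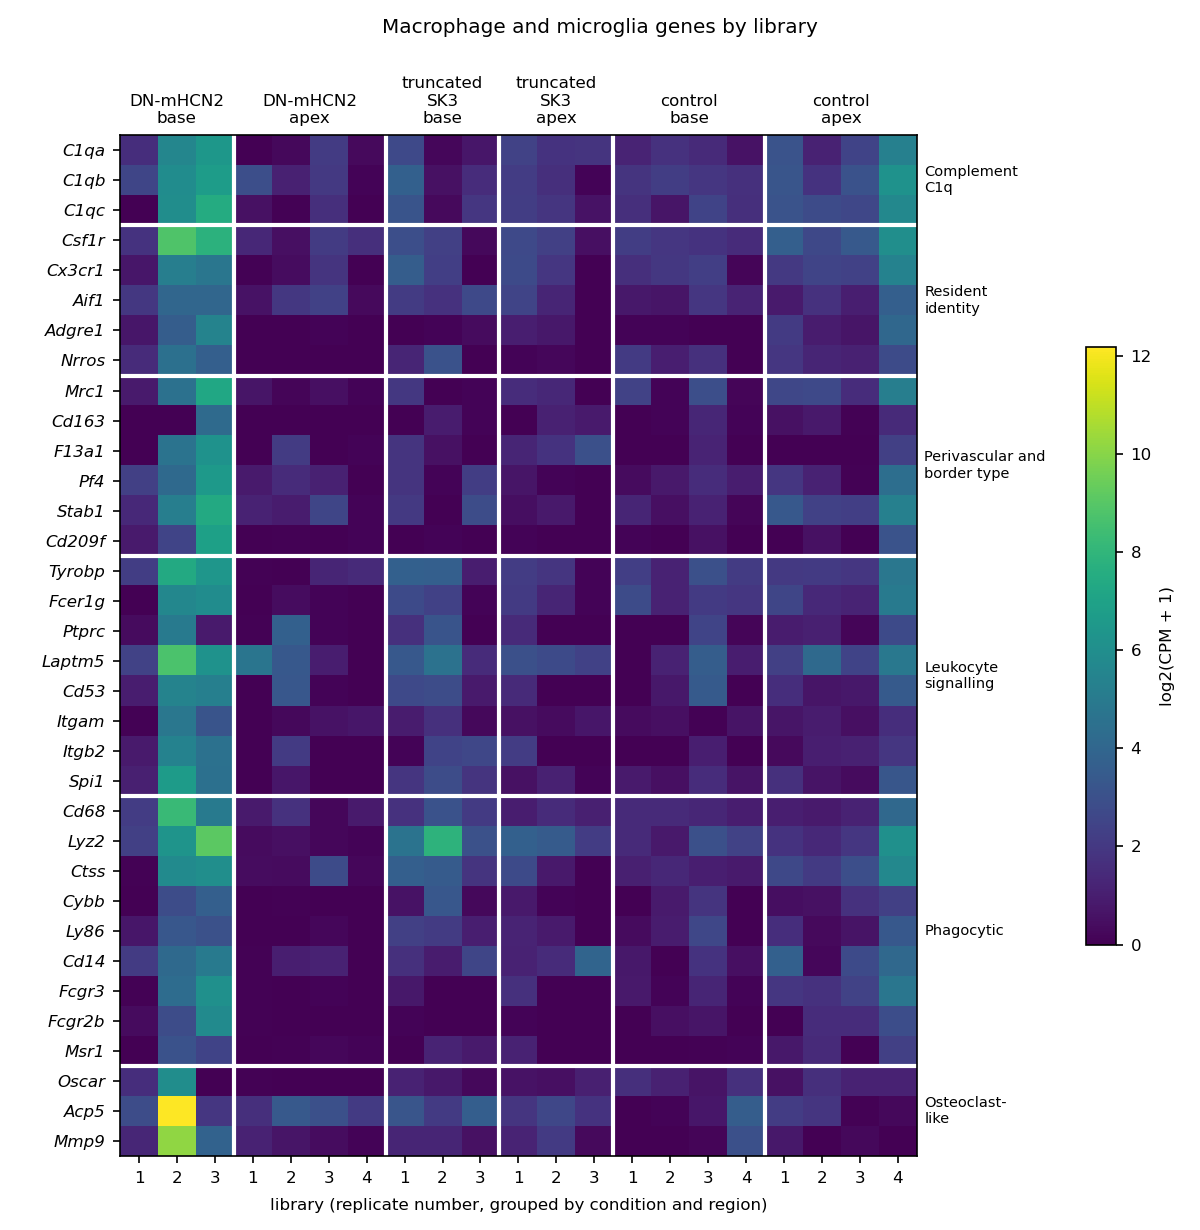
Level of each of the 34 members, as log2(CPM + 1), in each of the 21 libraries, with genes ordered by role and libraries by condition and region. The columns of DN-mHCN2 base replicates 2 and 3 and of control apex replicate 4 are lighter over almost all genes, and the rows of Acp5 and Mmp9 are light in DN-mHCN2 base replicate 2 alone, at 4663 and 1134 CPM.

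DN-mHCN2 was compared with control in the base to ask whether block of HCN2 goes with a change in these genes. All 34 members had a positive log2 fold change there, with a median of 5.12, against 0.032 over all tested genes. At a false discovery rate of 0.05 edgeR called 7 of the 34 higher and none lower, where 2.14% of all tested genes were called in either direction and 0.842% higher. The 7 were Adgre1 and Csf1r of resident identity, Stab1 and Cd209f of the perivascular group, Cd68 of the phagocytic group, and Acp5 and Mmp9 of the osteoclast group. None of the 3 C1q genes and none of the 8 leukocyte genes passed edgeR's test. Other tests gave other genes. DESeq2, which called 1101 genes in all, called 20 of the 34, all higher. Among them were the 3 C1q genes and Itgam, Laptm5, Spi1 and Tyrobp of the leukocyte group. Limma-voom, which called 423 genes in all, called Adgre1 and the leukocyte gene Itgb2. EdgeR on only the libraries compared, where 29 members were tested, called C1qb alone and 238 genes in all. Adgre1 did not pass the filter on low counts in that fit and was not tested. In 8 members every DN-mHCN2 base library was above every control base library, as in 8.02% of all tested genes. They were C1qb, Aif1, Adgre1, Pf4, Stab1, Cd209f, Cd68 and Cd14. In 21 members replicate 1 of DN-mHCN2 base lay within the control range, a number for which the share of all tested genes was not computed.

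These 7 calls rested on replicates 2 and 3 of DN-mHCN2 base. With both left out, a choice made after the data were seen that leaves 1 library in the group, edgeR called 0 of the 34. The log2 fold change was then 3.86 for Adgre1 (edgeR adjusted p = 0.426) and 2.57 for Cd209f (adjusted p = 0.704), and 1.27, 1.10 and 1.09 for Cd68, Stab1 and Acp5. For Csf1r it was -0.11 and for Mmp9 -0.23. Leaving out 1 library at a time gave 1 call without any one of the 4 control base libraries, and 17, 2 and 5 calls without DN-mHCN2 base replicates 1, 2 and 3. Over all tested genes the calls were 165, 153, 172 and 107 without control base replicates 1, 2, 3 and 4. They were 569, 165 and 171 without DN-mHCN2 base replicates 1, 2 and 3. Other cell types moved in the same comparison. Of 9 markers of cochlear supporting cells 3 were called higher. The 9 summed to 2345, 165 and 993 CPM in DN-mHCN2 base replicates 1, 2 and 3, against 29.8 to 348 CPM in control base. That is not the order of the members. Erythroid markers, 6 in number, summed to 776, 2496 and 2317 CPM in these replicates, against 7.18 to 1093 CPM in control base. In the 19 libraries other than replicates 2 and 3 they reached up to 4152 CPM. Of 11 glial markers 2 were called lower, with sums of 9148 to 13590 CPM in DN-mHCN2 base against 13790 to 26250 CPM in control base. Their part in the result was not tested.

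Among the genes of resident identity, Csf1r encodes the receptor for the growth factors CSF1 and IL34 that keeps macrophages alive. It had 2.41, 454 and 227 CPM in DN-mHCN2 base libraries, against 3.57, 2.76, 2.44 and 1.83 CPM in control base libraries. Replicate 1 fell inside the control range and the other two were far above it. Its log2 effect was 6.42 (SE 1.38, edgeR adjusted p = 0.0259). Adgre1 encodes the adhesion receptor that defines the classical mouse macrophage antigen. Its levels were 0.669, 11.03 and 43.0 CPM in DN-mHCN2 base libraries and 0.0872, 0.0707, 0 and 0 CPM in control base libraries. The groups did not overlap, but the control base values are 2 counts in all, against 598 counts in DN-mHCN2 base. The pooled ratio was 445-fold (95% exact counting interval 123 to 3687), which covers counting error only, and the test gave an edgeR adjusted p of 0.0150. Aif1, which encodes an actin-binding protein used to stain microglia, had 2.88, 15.2 and 15.4 CPM in DN-mHCN2 base libraries and 0.697, 0.636, 2.78 and 1.34 CPM in control base libraries, groups that were apart by little. Nrros, which presents latent TGF-beta on microglia, had 1.81, 21.96 and 12.02 CPM in DN-mHCN2 base libraries and 3.14, 1.06, 2.24 and 0 CPM in control base libraries, with replicate 1 inside the control range.

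Complement C1q starts the classical complement cascade, and in the nervous system microglia are its main source. C1qa had 2.01, 47.0 and 86.1 CPM in DN-mHCN2 base libraries and 1.31, 2.33, 1.70 and 0.492 CPM in control base libraries. C1qb had 4.82, 59.1 and 106 CPM in DN-mHCN2 base libraries and 2.62, 3.60, 2.85 and 2.25 CPM in control base libraries. C1qc had 0, 62.6 and 177 CPM in DN-mHCN2 base libraries and 2.09, 0.636, 4.41 and 2.11 CPM in control base libraries. In each of the 3 genes replicate 3 was the higher of the high pair, and only C1qb had groups that did not overlap. The median log2 fold change of the 3 was 4.94, and the closest to edgeR's threshold was C1qa (edgeR adjusted p = 0.0738). DESeq2 called all 3.

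The perivascular and border group holds scavenger and lectin receptors of macrophages along vessels and meninges. Stab1, a scavenger receptor, had 1.67, 36.6 and 167 CPM in DN-mHCN2 base libraries, against 1.40, 0.424, 1.22 and 0.141 CPM in control base libraries. Cd209f, a C-type lectin, had 0.870, 4.73 and 121 CPM in DN-mHCN2 base libraries, against 0.0872, 0, 0.475 and 0 CPM in control base libraries. In both genes every DN-mHCN2 base library was above every control base library, with replicate 3 well above replicate 2. Their log2 fold changes were 6.42 (SE 1.61, edgeR adjusted p = 0.0481) for Stab1 and 8.11 (SE 1.96, edgeR adjusted p = 0.0385) for Cd209f. Cd209f had 10 counts or more in only 4 libraries, those of DN-mHCN2 base and control apex replicate 4. It thus passed the filter on low counts through the group where it was high, so filter and call rest on the same values. Mrc1, the mannose receptor, had 0.870, 22.3 and 150 CPM in DN-mHCN2 base libraries and 4.36, 0.0707, 6.58 and 0.141 CPM in control base libraries, and did not pass edgeR's test. Cd163, the scavenger receptor for haemoglobin bound to haptoglobin, was seen in 1 of the 3 DN-mHCN2 base libraries, replicate 3, at 17.4 CPM. F13a1, the A subunit of clotting factor XIII, and Pf4, a chemokine that platelets also hold, reached 72.6 and 93.9 CPM in DN-mHCN2 base replicate 3, with 23.9 and 17.1 CPM in replicate 2. Markers of platelets and megakaryocytes, 5 in number, summed to 15.6 and 10.2 CPM in replicates 2 and 3, within the 3.32 to 17.1 CPM of the 19 other libraries.

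Genes of leukocyte signalling all had higher means in DN-mHCN2 base than in control base, and edgeR called 0 of the 8, while DESeq2 called 4 of them and limma-voom 1. Spi1, which encodes PU.1, came closest, with 1.07, 103 and 21.3 CPM in DN-mHCN2 base libraries and 0.872, 0.424, 1.97 and 0.563 CPM in control base libraries (log2 fold change 5.43, SE 1.42, edgeR adjusted p = 0.0506). Tyrobp and Fcer1g encode the adaptors through which activating receptors of myeloid cells signal. Tyrobp had 3.68, 166 and 82.4 CPM in DN-mHCN2 base libraries and 3.83, 1.27, 6.92 and 3.31 CPM in control base libraries. Fcer1g had 0, 49.3 and 59.4 CPM in DN-mHCN2 base libraries and 5.84, 1.27, 3.19 and 2.74 CPM in control base libraries. In both adaptors replicate 1 was not above the control libraries. Itgam and Itgb2, the chains of a complement receptor integrin, reached 27.2 and 42.0 CPM in replicate 2 and 7.89 and 22.7 CPM in replicate 3 of DN-mHCN2 base. The count of Itgam is uncertain, since 72.4% of its 50-base stretches also occur in the overlapping gene model Gm49368. Laptm5, a lysosomal protein of blood cells, reached 422 and 74.2 CPM in the same 2 libraries, the tetraspanin Cd53 42.9 and 37.1 CPM, and Ptprc, the phosphatase of all leukocytes, 31.2 and 0.826 CPM.

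In the phagocytic group Cd68, a glycoprotein of macrophage lysosomes, had 3.55, 306 and 30.2 CPM in DN-mHCN2 base libraries, against 1.74, 1.77, 1.49 and 0.985 CPM in control base libraries. Its groups did not overlap, with a log2 effect of 6.23 (SE 1.31, edgeR adjusted p = 0.0213). Lyz2, the lysozyme of macrophages and neutrophils, had 3.88, 78.4 and 560 CPM in DN-mHCN2 base libraries and 1.74, 0.777, 6.92 and 4.36 CPM in control base libraries, where replicate 1 lay within the control range (log2 fold change 5.94, SE 1.68, edgeR adjusted p = 0.0727). Lyz2 shares 15.4% of its 50-base stretches with Lyz1. Neutrophil markers, 10 in number, summed to 1.85 and 1.28 CPM in replicates 2 and 3, against up to 45.3 CPM elsewhere. Fcgr3, an activating receptor for antibodies, and Fcgr2b, its inhibitory counterpart, had 69.3 and 56.1 CPM in replicate 3 and 19.0 and 6.02 CPM in replicate 2. The protease Ctss had 56.1 and 64.5 CPM in replicates 2 and 3. Cybb, the oxidase subunit of phagocytes, the coreceptor Cd14 and the scavenger receptor Msr1 had between 4.50 and 31.2 CPM in these 2 libraries.

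The 3 osteoclast genes were of another kind, since 1 library carried them. Acp5 encodes the acid phosphatase by which osteoclasts are stained, and had 6.23, 4663 and 2.75 CPM in DN-mHCN2 base libraries, against 0, 0.0707, 0.678 and 11.1 CPM in control base libraries. Mmp9, a protease of bone matrix, had 1.47, 1134 and 13.3 CPM in DN-mHCN2 base libraries, against 0, 0, 0.136 and 6.89 CPM in control base libraries. Both were highest by far in replicate 2, while replicates 1 and 3 of Acp5 lay within the control range. The fitted log2 fold changes were 9.01 (SE 2.20, edgeR adjusted p = 0.0477) for Acp5 and 7.74 (SE 1.90, edgeR adjusted p = 0.0483) for Mmp9. Without replicate 2 that of Acp5 was 0.62 (edgeR adjusted p = 0.880). Oscar, a receptor that signals with the Fcer1g adaptor in osteoclasts, had 2.01, 62.3 and 0 CPM in DN-mHCN2 base libraries and 2.09, 1.20, 0.543 and 2.25 CPM in control base libraries. It did not pass edgeR's test but was called by DESeq2.

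The 2 high libraries of DN-mHCN2 base differed from each other in make-up. Shares of the summed CPM are not corrected for gene length, so they compare libraries and not genes. The osteoclast genes made up 72.7% of the sum in replicate 2 and 0.649% in replicate 3. The perivascular group made up 1.30% in replicate 2 and 25.2% in replicate 3, and the phagocytic group 6.26% and 33.8%. With the osteoclast genes left out, leukocyte signalling still made up 40.1% of the rest in replicate 2 and 12.4% in replicate 3, and the perivascular group 4.76% and 25.3%. The phagocytic share of the rest was then 22.9% in replicate 2 and hardly changed in replicate 3. The order of the phagocytic sums depended on single genes. Without Lyz2 the 8 other phagocytic members summed to 426 CPM in replicate 2 and 275 CPM in replicate 3, though 6 of all 9 were higher in replicate 3. Of these sums Cd68 alone held 306 CPM in replicate 2 and 30.2 CPM in replicate 3. Of the sum over all 34 genes, control apex replicate 4 had 22.3% in C1q, 14.8% in the perivascular group and 27.5% in the phagocytic group. These shares were nearer to those of replicate 3 than of replicate 2 while the osteoclast genes were counted in the sum.

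**Figure D3:**
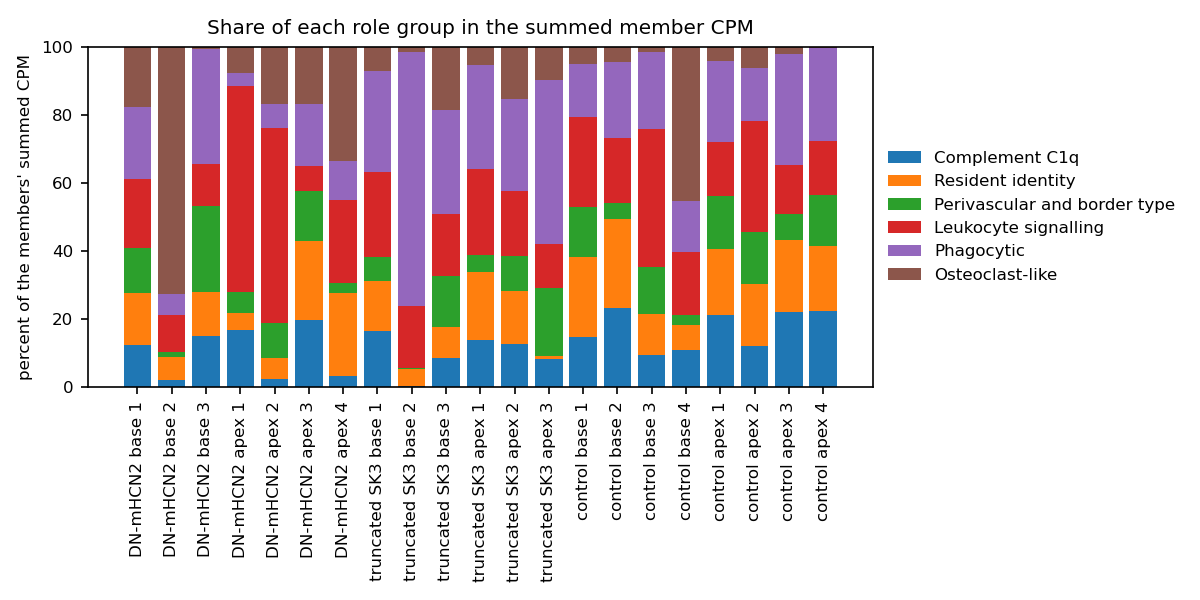
Share of each role group in the summed CPM of the 34 members, in percent, for each of the 21 libraries. Osteoclast genes make up 72.7% in DN-mHCN2 base replicate 2, phagocytic genes 74.7% in truncated SK3 base replicate 2, mostly Lyz2, and libraries with sums under 100 CPM vary widely.

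Gene by gene, 16 members were higher in replicate 2 and 18 in replicate 3. Oscar was at least 226-fold higher in replicate 2, against a floor of 3 counts in replicate 3, Ptprc 37.8-fold, Cd68 10.1-fold, Laptm5 5.69-fold and Spi1 4.83-fold. In replicate 3 Cd163 was at least 62.7-fold higher, against a floor of 3 counts in replicate 2. There Cd209f was 25.6-fold higher, Fcgr2b 9.32-fold, Lyz2 7.15-fold, Mrc1 6.74-fold, Pf4 5.51-fold and Stab1 4.56-fold. All 6 perivascular genes were higher in replicate 3, and 7 of the 8 leukocyte genes were higher in replicate 2, with Fcer1g the exception. These ratios compare 2 libraries of 1 group and carry no test.

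**Figure D4:**
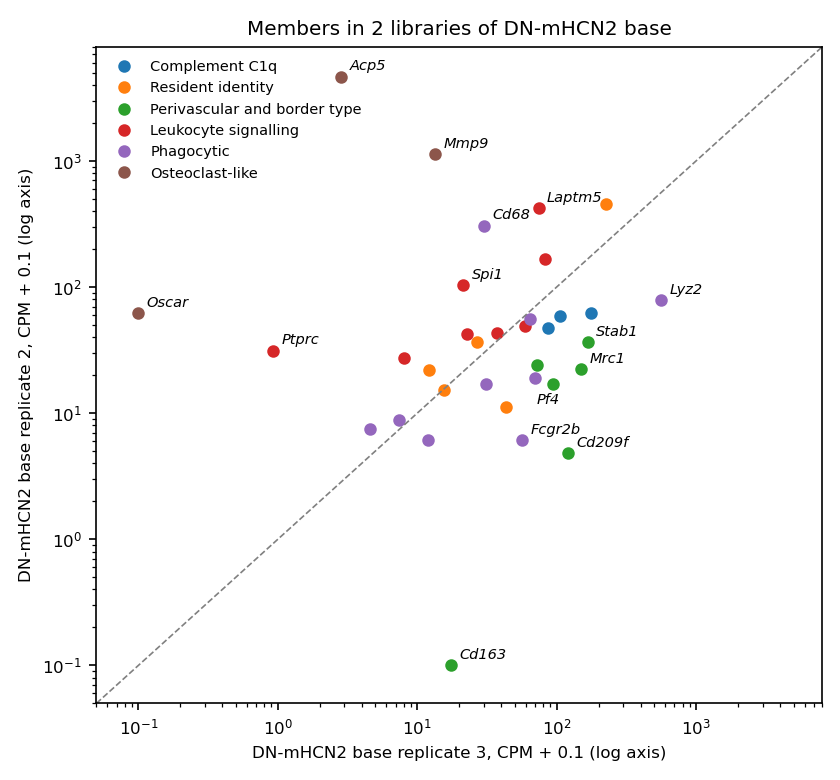
CPM of each member in DN-mHCN2 base replicate 2 against replicate 3, both on log axes with 0.1 CPM added, by role, with a dashed line of equal level and names for members over 4-fold apart. The perivascular genes lie under the line and Acp5, Mmp9, Oscar, Cd68 and Ptprc above it.

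Genes outside the 34 divided the 2 libraries in the same way. A list of 10 other osteoclast genes summed to 5015 CPM in DN-mHCN2 base replicate 2, and to between 7.88 and 49.5 CPM in the 20 other libraries. In it Ctsk, the collagen-degrading protease of osteoclasts, had 22.2, 4245 and 0.826 CPM in DN-mHCN2 base libraries. The fusion gene Dcstamp had 0.134, 95.2 and 0.0917 CPM there, and the proton pump subunit Atp6v0d2 had 0.268, 368 and 0.0917 CPM. A list of perivascular macrophage genes, without Gas6, summed to 361 CPM in DN-mHCN2 base replicate 3 and 55.3 CPM in replicate 2, with 38.4 CPM in control apex replicate 4 and at most 14.2 CPM elsewhere. Gas6 was left out after its values were seen, because it was high in all libraries. Ms4a7, a membrane protein of such macrophages, had 0, 18.1 and 97.1 CPM in DN-mHCN2 base libraries, and Lyve1, a hyaluronan receptor, had 0, 0 and 22.3 CPM.

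**Figure D5:**
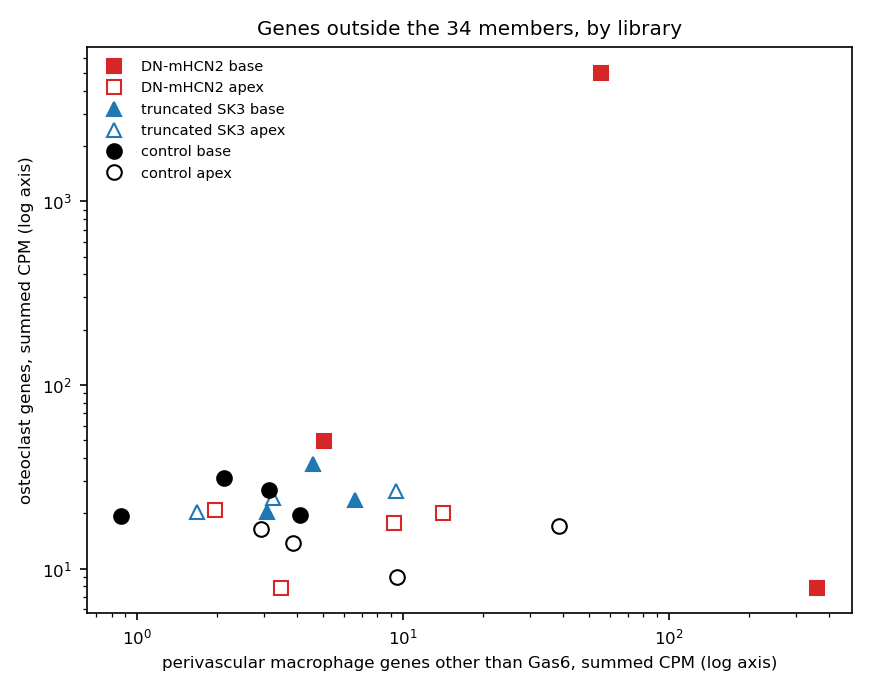
Summed CPM of the 10 osteoclast genes outside the 34 members against that of the 9 perivascular macrophage genes other than Gas6, both on log axes, in each library. One DN-mHCN2 base library stands alone at the top, at 5015 CPM on the vertical axis, and another at the right, at 361 CPM on the horizontal axis.

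In the apex the members were low in DN-mHCN2. Of the 34, 31 had a negative log2 fold change against control, with a median of -3.83, or -3.804 with Nrros and Cd163, which had no count in the 4 DN-mHCN2 apex libraries, at a floor of 3 counts over the group. The median of all tested genes was 0.013. No member passed edgeR's test, where 0.200% of all genes were called. An unadjusted p under 0.05 stood at 23 members and at 1783 of all 14968 genes, or 11.9%. DESeq2 called 10 members and 232 genes in all, and limma-voom 0 members and 220 genes. In 14 members every DN-mHCN2 apex library was below every control apex library, as in 4.88% of all tested genes. They were C1qc, Csf1r, Cx3cr1, Adgre1, Nrros, Mrc1, Cd163, Tyrobp, Fcer1g, Lyz2, Cybb, Ly86, Fcgr3 and Oscar.

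Adgre1 came closest to the threshold, with 0, 0, 0.0829 and 0 CPM in DN-mHCN2 apex libraries and 3.25, 0.926, 0.610 and 16.1 CPM in control apex libraries. That is 1 count in DN-mHCN2 apex and 294 in control apex, 231 of them in replicate 4, with an edgeR adjusted p of 0.0851. Csf1r had 1.57, 0.408, 3.40 and 2.17 CPM in DN-mHCN2 apex libraries and 12, 5.17, 9.69 and 65.0 CPM in control apex libraries (log2 fold change -3.62, SE 1.23, edgeR adjusted p = 0.269). Fcgr3 had 0.0653, 0, 0.0829 and 0 CPM in DN-mHCN2 apex libraries and 2.86, 2.32, 4.34 and 26.6 CPM in control apex libraries. In these 3 genes the lowest control library was above the highest DN-mHCN2 library. Nrros was at 0 in all 4 DN-mHCN2 apex libraries and had 2.86, 1.39, 1.15 and 5.98 CPM in control apex libraries, so it was at least 53.1-fold lower in DN-mHCN2 apex against a floor of 3 counts over the group. A few members went the other way in single DN-mHCN2 apex libraries, with Laptm5 at 25.9 CPM in replicate 1 and Ptprc at 12.3 CPM in replicate 2. In replicate 2 markers of T and NK cells, 7 in the table, summed to 35.4 CPM, against 4.23 to 6.50 CPM in the other DN-mHCN2 apex libraries and 0 to 4.01 CPM in control apex, and their part in the level of Ptprc was not tested.

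Base was set against apex within each condition to see whether the genes differ along the cochlea. In DN-mHCN2 all 34 had a positive log2 difference, with a median of 6.80, or 6.73 with Nrros and Cd163 at their bound, against 0.003 over all genes. EdgeR called 4 higher in the base and none lower, Oscar, Adgre1, Spi1 and Cd68, where 0.214% of all genes were called in either direction and 0.114% higher. Cd68 had 3.55, 306 and 30.2 CPM in DN-mHCN2 base and 0.849, 2.31, 0.166 and 0.822 CPM in DN-mHCN2 apex (log2 difference 6.74, SE 1.34, edgeR adjusted p = 0.0472). Spi1 had 1.07, 103 and 21.3 CPM in DN-mHCN2 base and 0, 0.680, 0 and 0 CPM in DN-mHCN2 apex (log2 difference 7.82, SE 1.61, edgeR adjusted p = 0.0472). Neither gene had overlapping groups. Adgre1 and Oscar each had 1 count in DN-mHCN2 apex, against 598 and 702 counts in DN-mHCN2 base, with edgeR adjusted p of 0.0472 and 0.0350. The pooled ratio was 905-fold for Adgre1 (95% exact counting interval 162 to 35820) and 1063-fold for Oscar (190 to 42040). Without DN-mHCN2 base replicates 2 and 3 edgeR called 0, with log2 differences of 6.27 for Oscar (edgeR adjusted p = 0.129), 4.602 for Adgre1 (adjusted p = 0.445), 2.59 for Spi1 and 1.78 for Cd68. Leaving out 1 library at a time gave between 0 and 18 calls, the most without DN-mHCN2 base replicate 1, where 178 of all genes were called.

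In control the order was the other way. Of the 34 members 31 had a negative log2 difference of base over apex, with a median of -2.06 against 0.003 over all genes, while the median in truncated SK3 was 1.05 against 0.001. EdgeR called 0 members in either condition, where it called 0.00% of all genes in control and 0.0134% in truncated SK3. Unadjusted p-values under 0.05 stood at 11 members in control, where 4.82% of all genes had one, and at 1 in truncated SK3, where 9.58% had one. DESeq2 called 1 in control, Adgre1, and 0 in truncated SK3. In 6 members every control base library was below every control apex library, as in 2.85% of all tested genes, namely C1qc, Csf1r, Adgre1, Stab1, Ctss and Fcgr3. Stab1, for example, had 1.40, 0.424, 1.22 and 0.141 CPM in control base and 9.13, 4.09, 3.86 and 38.4 CPM in control apex (log2 difference -4.12, SE 1.44, edgeR adjusted p = 0.756). The scavenger receptor was thus lower in each control library from the base, without passing edgeR's test.

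An interaction term asked whether the DN-mHCN2 effect was the same in both regions. All 34 members were positive, with a median of 8.59 against 0.006 over all genes, and edgeR called 1, where 0.00668% of all genes were called. That 1 gene was Adgre1, with 598 counts in DN-mHCN2 base, 2 in control base, 1 in DN-mHCN2 apex and 294 in control apex (log2 difference 16.11, SE 2.46, edgeR adjusted p = 0.0278). With so few counts in 2 of the 4 groups the size of this value depends on the model and is no measure of fold. Without DN-mHCN2 base replicates 2 and 3, with 1 library left in the group, the log2 difference was 11.4. The call stood in 4 of the 15 fits without 1 library. Among the fits in which it ended was that without control apex replicate 4 (log2 difference 14.4, edgeR adjusted p = 0.0857). Csf1r was next, at 10.04 (SE 1.84, edgeR adjusted p = 0.184), from a base effect of 6.42 and an apex effect of -3.62. The same interaction for truncated SK3 gave 0 calls, where 0.00% of all genes were called, with 8 members and 3.64% of all genes at an unadjusted p under 0.05 and 0 members called by DESeq2.

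Averaged over both regions, the DN-mHCN2 effect was positive in 23 and negative in 11 of the 34 members, with a median log2 value of 0.68 against 0.028 over all genes. EdgeR called 1 member, Acp5, where it called 6.05% of all genes in either direction and 2.45% higher. Acp5 had 6.23, 4663 and 2.75 CPM in DN-mHCN2 base and 2.09, 9.59, 6.97 and 3.21 CPM in DN-mHCN2 apex, against 0, 0.0707, 0.678 and 11.1 CPM in control base and 3.48, 2.70, 0.0678 and 0.208 CPM in control apex. Apart from the 1 library at 4663 CPM, its levels stayed under 12 CPM in both conditions. The log2 effect was 5.40 (SE 1.37, edgeR adjusted p = 0.0316), and the call ended without DN-mHCN2 base replicates 2 and 3. The share of members called was near that of all genes.

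Among truncated SK3 libraries 1 held a high level of Lyz2. In truncated SK3 base replicate 2 the phagocytic genes made up 74.7% of the members' sum, 65.7% being Lyz2 alone, and C1q made up 0.246%. The 8 other phagocytic members summed to 32.3 CPM there, against 21.9 and 12.8 CPM in the other truncated SK3 base libraries. Lyz2 had 23.9, 237 and 7.06 CPM in truncated SK3 base libraries, against 1.74, 0.777, 6.92 and 4.36 CPM in control base libraries. The groups were just apart, with 1 truncated SK3 library far above the rest. Its log2 effect was 4.68 (SE 1.60, edgeR adjusted p = 0.678). In the same library Cd74, the invariant chain of MHC class II, had 200 CPM, against 26.0 and 1.16 CPM in the other truncated SK3 base libraries and 4.36, 0.989, 0.746 and 0.492 CPM in control base libraries. Markers of monocytes, 5 in number, summed to 22.1 CPM in that library, against 1.73 and 2.71 CPM in the others of its group and 0 to 11.7 CPM in control base. Their part in the level of Lyz2 was not tested.

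Against control in the base, 27 of 34 members were positive under truncated SK3, with a median log2 fold change of 1.14 against 0.010 over all genes, and edgeR called 0, where 0.147% of all genes were called. Lyz2 alone, 1 of the 34, had an unadjusted p under 0.05, as did 5.51% of all genes, and DESeq2 and limma-voom called 0. In 4 members, Spi1, Cd68, Lyz2 and Ctss, every truncated SK3 base library was above every control base library, as in 3.91% of all tested genes. Ctss, a protease of antigen processing, had 12.03, 10.5 and 2.52 CPM in truncated SK3 base libraries and 1.13, 1.55, 1.02 and 0.844 CPM in control base libraries. Spi1 had 2.65, 6.13 and 2.61 CPM in truncated SK3 base libraries and 0.872, 0.424, 1.97 and 0.563 CPM in control base libraries. These levels lay at or above the medians of the 21 libraries, 2.52 CPM for Ctss and 0.872 CPM for Spi1. They were under those of DN-mHCN2 base replicates 2 and 3.

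In the apex 31 of 34 members were negative under truncated SK3, with a median log2 fold change of -2.19 against 0.016 over all genes, and edgeR called 0, where 0.254% of all genes were called. Unadjusted p-values under 0.05 stood at 8 members and at 1274 of all 14968 genes, or 8.51%. DESeq2 called 0 members and 156 genes in all. C1qc, Nrros, Stab1 and Fcgr3, 4 of the 34, were lower in every truncated SK3 apex library than in any control apex library, as were 6.77% of all tested genes. Stab1 had 0.352, 0.790 and 0 CPM in truncated SK3 apex libraries and 9.13, 4.09, 3.86 and 38.4 CPM in control apex libraries (log2 fold change -5.12, SE 1.75, edgeR adjusted p = 0.384). The comparison shares its control libraries with that of DN-mHCN2 in the apex, where Stab1 had 1.24, 0.884, 4.81 and 0.0747 CPM in DN-mHCN2 apex libraries. Over both regions edgeR called 0 of 34 under truncated SK3, where 0.735% of all genes were called, with 2 members and 10.3% of all genes at an unadjusted p under 0.05 and 0 members called by DESeq2. It called 1, Lyz2, as higher when DN-mHCN2 base replicates 2 and 3 and control apex replicate 4 were left out.

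Genes that act with the members were read from lists of the same pathways. The values below are for DN-mHCN2 in the base. Trem2, the phagocytic receptor that signals through Tyrobp, had 2.21, 15.9 and 24.2 CPM in DN-mHCN2 base libraries and 7.67, 5.87, 0.204 and 1.13 CPM in control base libraries, and did not pass edgeR's test. P2ry12, the purine receptor of brain microglia, had 0.201, 18.9 and 23.1 CPM in DN-mHCN2 base libraries, and Tmem119, another marker of brain microglia, had 28.8, 11.03 and 4.77 CPM, against 4.27, 8.41, 20.8 and 5.63 CPM in control base libraries. Tmem119 thus did not follow the other genes. Of 5 tested genes of the osteoclast list 1 was called, Nfatc1, the regulator of osteoclast formation, with 9.71, 110 and 1.47 CPM in DN-mHCN2 base libraries and 2.09, 1.84, 0.746 and 3.799 CPM in control base libraries (log2 fold change 4.25, SE 0.990, edgeR adjusted p = 0.0298).

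Lysosomal genes, which neurons and glia also express, rose in part. Of 15 tested, 3 were called higher and none lower, Ctsz, Hexa and Grn, with log2 fold changes of 1.60, 2.02 and 1.35. Ctsz, a carboxypeptidase, had 173, 510 and 214 CPM in DN-mHCN2 base libraries and 108, 102, 92.2 and 91.9 CPM in control base libraries, groups that did not overlap. Of 12 tested genes of Tyrobp signalling, Sirpa, an inhibitory receptor that reads a signal against phagocytosis, was called, at a log2 fold change of 1.40. Of 10 genes for the clearance of dead cells, the integrin subunit Itgb5 was called higher, at 1.75, and the glial engulfment receptor Megf10 lower, at -2.01. EdgeR called none among 4 tested CSF1R ligands and growth factor receptors, 11 transcription factors, 10 complement genes, 11 chemokines, 5 inflammatory cytokines, 7 genes of MHC class II and 8 of the lipid response of phagocytes. The chemokine genes Ccl2 and Ccl7, which draw monocytes, still had 177 and 212 CPM in DN-mHCN2 base replicate 3, 25.7 and 55.5 CPM in replicate 2, and 48.2 and 59.9 CPM in control apex replicate 4, against at most 8.05 CPM in any other library.

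Other comparisons called few of these genes. Between base and apex in DN-mHCN2 edgeR called Sirpa and Ctsz higher in the base, with log2 differences of 1.83 and 1.38. For DN-mHCN2 against control over both regions it called Ctsz, Hexa, Npc2 and Ctsh higher and Psap lower among 15 lysosomal genes, and Itgb5 higher and Megf10 lower among 10 clearance genes. Under truncated SK3, with both regions averaged, 1 of 8 genes of the lipid response was called, the tetraspanin Cd9, at a log2 fold change of 0.70 (SE 0.148, edgeR adjusted p = 0.0231).

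Of 12234 genes outside the list that reached 10 CPM in a library, those most like the summed member level over the 21 libraries were also genes of myeloid cells. As a description across libraries, Pearson's r on log2(CPM + 1) was 0.948 for the lectin Clec4a2, 0.929 for Bcl2a1b, 0.927 for Ms4a6c and 0.921 for Myo1f, and it was 0.894 for Ptpn18, the last of the 10 named. Between them were Nfam1, Ms4a6d, Ccr1, Slfn2 and Clec4a3. A few libraries set these values, since Clec4a2 had 64.8 and 10.0 CPM in DN-mHCN2 base replicates 2 and 3, 3.82 CPM in control apex replicate 4 and at most 2.26 CPM in any other. The chemokine receptor Ccr1 had 143 CPM in DN-mHCN2 base replicate 2 and 23.2 CPM in replicate 3.

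Levels of different genes can be compared only per length, here CPM per kb of the longest GENCODE M21 transcript. On that scale DN-mHCN2 base replicate 2 was led by Acp5 at 3222, Mmp9 at 357, Tyrobp at 277 and Cd68 at 249 CPM per kb. DN-mHCN2 base replicate 3 was led by Lyz2 at 426, Pf4 at 160, C1qc at 147 and Tyrobp at 138 CPM per kb. Truncated SK3 base replicate 2 was led by Lyz2 at 180 CPM per kb, with Tyrobp next at 20.01 CPM per kb, and control apex replicate 4 by C1qb at 66.9 CPM per kb. Tyrobp, the short adaptor, was among the 4 highest members in each of these libraries.

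Some counts are less certain than their depth alone would make them. Cd209f shares 25.9% of its 50-base stretches with Cd209g, and Fcgr3 shares 12.8% with Fcgr2b. Exons of Csf1r overlap those of Hmgxb3 on the opposite strand, those of Stab1 overlap Nt5dc2, and those of Acp5 overlap 6530413G14Rik, and Smart-seq2 does not mark strand. Nt5dc2 had 33.8, 17.1 and 4.77 CPM in DN-mHCN2 base libraries, the reverse of the order of Stab1. On GRCm38 the 3 C1q genes lie side by side on chromosome 4, with C1qb at chr4:136880129-136886187, C1qc at chr4:136889804-136893065 and C1qa at chr4:136895917-136898803, all on the minus strand. Adgre1 lies at chr17:57358691-57483527 on the plus strand, Acp5 at chr9:22126727-22135711 on the minus strand and Cd68 at chr11:69664213-69666153 on the minus strand. As the table gives counts per gene, no part of a gene can be singled out.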

How the data were processed

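The authors deposited 1 table of read counts, whole numbers per gene symbol and library that were not normalized. Of its 21878 lines, 3555 hold no count and 27 carry a date for a symbol. The submitters' processing notes name Trimmomatic, HISAT2, DESeq2 and the builds mm10 and GRCm38. The counter, its strand setting and the annotation are not given in the sources used here. Libraries were grouped by title, and columns matched by the names in the labels.

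Genes were kept with filterByExpr and scaled with TMM factors. Robust quasi-likelihood models of edgeR 4.0.16 (R 4.3.3) were fitted to all 21 libraries with 1 mean per group, for 11 contrasts, with p-values adjusted over the 14968 tested genes by the Benjamini-Hochberg method and calls at a false discovery rate of 0.05. The SE of a log2 fold change follows from the F statistic. CPM are counts over the TMM-scaled library total. A floor is 3 counts, and intervals and floors cover counting error only, since reads carry no molecular identifiers. The code was tested on simulated data. Coordinates and lengths are from GENCODE M21 on GRCm38, promoter windows from RefSeq on GRCm38.p6.

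The members, their roles and the other lists were chosen with earlier results of these data known. Named are all 34 members, up to 3 called genes of each other list in a comparison by smallest p, and the 10 genes most like the members' sum; Trem2, P2ry12, Tmem119, Ctsk, Dcstamp, Atp6v0d2, Ms4a7, Lyve1, Cd74, Ccl2, Ccl7, Ctsh and Psap were named after their values were seen. One gene that the rule names is not reported here.

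Alternatives were RLE factors, no filter on low counts, 10 CPM in 3 libraries, DESeq2 1.42.0, limma-voom (limma 3.58.1) with quality weights, only the libraries compared, replicate blocks and each library left out in turn. Leaving out DN-mHCN2 base replicates 2 and 3, or these and control apex replicate 4, was chosen after seeing the data.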

Additional observations from a re-analysis of the deposited data

Results flagged for a closer look

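In groups of 4 libraries, a library was picked out where its gap to the nearest other passed Dixon's 95% critical value. For normally distributed values chance alone does so in about 1 of 20 groups. That rate was not tested for the low and skewed CPM used here. A group with counts in a single library is always picked out. Of 123 such groups over the 34 members and their sums 48 were picked out, 24 of them for control apex replicate 4. The groups share libraries, so the number picked out is a description and not a test. There the 34 members summed to 732 CPM, the C1q genes to 163, the resident genes to 141, the perivascular genes to 108, the leukocyte genes to 117 and the phagocytic genes to 201 CPM. Control apex replicate 4 was far above the rest of its group in C1qb at 72.8, C1qc at 51.4, Csf1r at 65.0, Cx3cr1 at 41.9, Aif1 at 11.8 and Mrc1 at 36.5 CPM. The same library stood out in F13a1 at 4.03, Pf4 at 19.9, Stab1 at 38.4, Cd209f at 7.64, Tyrobp at 27.9 and Fcer1g at 31.7 CPM. It also stood out in Ptprc at 5.77, Cd53 at 9.80, Cd68 at 16.3, Lyz2 at 68.1, Ctss at 50.4 and Fcgr3 at 26.5 CPM.

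Control base replicate 3 stood out among control base libraries in Cd163 at 1.49, F13a1 at 1.36, Ptprc at 4.61, Laptm5 at 11, Cd53 at 9.91 and Itgb2 at 1.02 CPM, and in the sums of the leukocyte genes at 38.7 and the phagocytic genes at 21.5 CPM. Control base replicate 4 stood out in Acp5 at 11.1 and Mmp9 at 6.89 CPM and in their group's sum at 20.3 CPM. DN-mHCN2 apex replicate 2 stood out in F13a1 at 3.33, Ptprc at 12.3, Cd53 at 8.78, Itgb2 at 3.20, Spi1 at 0.680 and Cybb at 0.0680 CPM. DN-mHCN2 apex replicate 3 stood out in C1qa at 3.40, Cx3cr1 at 2.57, Adgre1 at 0.0829, Ctss at 5.89 and Ly86 at 0.166 CPM, and replicate 1 in Fcgr2b and Oscar at 0.0653 CPM each. Values under 0.1 CPM are 1 count, so these amount to a single read. Groups of 3, among them DN-mHCN2 base, were not examined in this way.

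One effect differed between regions by a test of the difference. For Adgre1 the DN-mHCN2 effect in the base exceeded that in the apex by 16.11 on the log2 scale (SE 2.46, edgeR adjusted p = 0.0278), a value that rests on 2 counts in control base and 1 in DN-mHCN2 apex.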

How the results depend on the processing

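For DN-mHCN2 against control in the base, edgeR called 7 members and 320 of all genes. The counts were 4 members and 234 genes without a low-count filter (Adgre1, Cd209f, Cd68 and Csf1r), 20 and 1101 by DESeq2, 2 and 423 by limma-voom (Adgre1 and Itgb2), 1 and 238 with only the libraries compared (C1qb), and 2 and 141 with the replicate block (Adgre1 and Cd68). DESeq2 gave no adjusted p for Acp5 and Mmp9, and Adgre1 was not tested with only the libraries compared. Members called were 0 with DN-mHCN2 base replicates 2 and 3 left out and 0 with control apex replicate 4 left out too, where 103 and 63 genes were called in all. Without 1 library the members' count ran from 1 to 17, and that of all genes from 107 to 569. In the apex DESeq2 called 10, where edgeR called 0 in each of 8 fits without 1 library. Over both regions edgeR called Acp5 alone. DESeq2, which called 1661 genes in all and gave no adjusted p for Acp5, called 2 other members, Cd68 as higher and Cd163 as lower. The count was 0 by limma-voom, with only the libraries compared, with the replicate block and in both fits without the libraries that stand apart, and 0 to 2 without 1 library. For base against apex in DN-mHCN2 4 calls became 2 without a filter, 2 at 10 CPM in 3 libraries, 23 by DESeq2 and 0 by limma-voom, with only the libraries compared, with the replicate block, with the block within a condition and in both fits without the libraries that stand apart, and 0 to 18 without 1 library. The DN-mHCN2 interaction went from 1 call to 25 by DESeq2, 0 by limma-voom, with either block and in both of those fits, and 0 to 13 without 1 library. In all, DESeq2 called 379 genes for base against apex in DN-mHCN2 and 123 for the DN-mHCN2 interaction. The edgeR fits without DN-mHCN2 base replicate 1, with 18 and 13 members called, called 178 and 34 genes in all. Over both regions the edgeR fits without 1 library called 520 to 1429 genes in all. With only the libraries compared, Adgre1 and Oscar were not tested for base against apex in DN-mHCN2. DESeq2 called 1 member and 83 genes in all for base against apex in control, and edgeR 1 member for truncated SK3 over both regions without all 3 libraries. In the base, Csf1r turned to -0.11 and Mmp9 to -0.23 on the log2 scale in both fits without the libraries that stand apart, where 1 DN-mHCN2 base library is left. The mean summed level without 1 library ran from 1264 to 5266 CPM in DN-mHCN2 base, 110 to 257 CPM in truncated SK3 base, 38.0 to 60.2 CPM in control base, 32.1 to 49.0 CPM in DN-mHCN2 apex, 48.4 to 71.5 CPM in truncated SK3 apex, while control apex ran from 89.7 to 308 CPM. Within a condition, base and apex libraries of the same replicate number correlated above 0.1 in 3 of 10 pairs (median r 0.052). Those of different numbers did so in 2 of 27 pairs (median r -0.003). With so few pairs and no animal named, whether replicate numbers pair the samples cannot be told. The cause of these differences between tools was not tested. Levels of a few counts carry little precision at this depth.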
